A study of Mus musculus with 10 samples.

Results

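The 3 Kat5 ko clones of the mouse cell line O9-1 were compared with wildtype O9-1 cells, gene by gene and clone by clone, to find which genes and functions changed in every clone and which depended on a single clone. Of the 43346 genes in the count table, the 13434 that passed a filter on low counts in the 4 wildtype and 3 Kat5 ko libraries were described, and these 7 libraries were among 10 in the whole series. O9-1 cells are a tetraploid line that was derived from the cranial neural crest of the mouse. Wildtype cells were sampled as 4 biological replicates. The Kat5 ko clones, named Kat5/1, Kat5/2 and Kat5/3, arose from separate single cells that had been transfected for CRISPR/Cas9 editing and sorted for EGFP. According to the study, all *Kat5* alleles carried insertions or deletions. All cells were kept on Matrigel in preconditioned O9-1 medium. Each clone was a single library, so that a difference between clones has no replicate of its own, and the wildtype cells were not described as single-cell clones. In bulk RNA, fewer cells of a type and less RNA per cell cannot be told apart.

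*Kat5*, also called *Tip60*, codes for a lysine acetyltransferase of the MYST family. In the Tip60/Ep400 complex it acetylates histones H4 and H2A and the variant H2A.Z, while the Ep400 subunit exchanges H2A.Z into nucleosomes, and the complex is known as a coactivator at promoters and in the response to DNA breaks. Neural crest cells arise at the border of the neural tube, migrate into the face and form much of its bone, cartilage and connective tissue.

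Poly-A RNA reads counted on genes numbered 30968945 to 44776201 per wildtype library and 32709984 to 48301792 per clone, of which mitochondrial genes took 0.893% to 2.43%. Of 22 markers of cranial neural crest and its mesenchyme, 17 had over 100 normalized counts in at least 1 library, among them *Twist1*, *Prrx1* and *Pdgfra*. *Tfap2b* exceeded 100 in wildtype library 3 alone. *Alx4* was at 0, as were *Sox10*, *Foxd3* and *Pax7* of the early neural crest. Of markers of other cell types, those of epithelium summed to 67.3 to 184 normalized counts in wildtype libraries and 25.9 to 32.96 in the clones. Those of endothelium (36.9 to 63.4 against 7.27 to 26.8) and blood (184 to 233 against 108 to 179) were also below every wildtype library in each clone. Those of neurons summed to 96.2 to 213 in wildtype libraries, 358 in Kat5/1, 289 in Kat5/2 and 59.8 in Kat5/3. Only *Krt18* of epithelium, *Cd68* of blood and *Tubb3* of neurons exceeded 100 normalized counts in any library, and 0 endothelial markers did. These 4 sums thus rest on few genes and low counts and do not measure numbers of cells. The summed markers of cranial neural crest and its mesenchyme were below every wildtype library too, with 305189 to 375160 in wildtype libraries and 278505 to 296534 in the clones. The part of these markers in the results was not tested. The wildtype libraries were not evenly spaced. Wildtype libraries 1 and 4 were the most alike (chi-square per degree of freedom 28.1 over genes), and wildtype libraries 2 and 3 differed most (138).

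The targeted gene was lower in every clone. *Kat5* (ENSMUSG00000024926, chromosome 19 from 5603014 to 5610237 on the minus strand) had 2175, 1833, 1970.1 and 2132 normalized counts in wildtype libraries 1 to 4 and 857, 603 and 849 in Kat5/1, Kat5/2 and Kat5/3, the order used for all values below. The groups did not overlap. The means were 2028 ± 156 (SD, n = 4) and 770 ± 144 (SD, n = 3), a difference of −1.40 ± 0.17 on the log2 scale (SE; edgeR adjusted p = 0.0217). Counts over a whole gene do not show whether a reading frame is intact, and *Rnaseh2c* overlaps *Kat5* on the opposite strand. Of the other 20 subunits of the Tip60/Ep400 complex, which include the scaffold protein Trrap and the ATPases Ruvbl1 and Ruvbl2, 0 were DEGs in either direction (0 at an adjusted p of at most 0.05). As only 0.0893% of all genes were upregulated and 0.298% downregulated DEGs, this count says nothing about these subunits. *Mrgbp* and *Actb* lay above the wildtype range in every clone (background 8.72%), and *Kat5* alone lay below it (background 10.9%). *Ep400* itself had 6011, 5902, 5899.6 and 6238 normalized counts in wildtype libraries and 5476, 8451 and 6135 in the clones, a difference of 0.15 ± 0.16 on the log2 scale (SE; edgeR adjusted p = 0.611). *H2afv*, which codes for an H2A.Z variant, had 816, 883, 906 and 725 in wildtype libraries and 821, 312 and 291 in the clones. It was within the wildtype range in Kat5/1 and below it in Kat5/2 and Kat5/3, where edgeR's single-clone tests gave adjusted p = 0.0223 and 0.0309.

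Most genes that changed in every clone were lower in the clones. A gene was counted as changed in all 3 clones if it differed at least 2-fold from the wildtype mean in the same direction in each clone, lay outside the wildtype range in each clone and had a mean over 100 normalized counts in a group. This held for 28 genes that were higher (0.208% of the genes tested) and 174 that were lower (1.3%). Only 45 of these 202, 10 up- and 35 downregulated, were also differentially expressed genes (DEGs), which had to differ at least 2-fold between the groups with an adjusted p of at most 0.05. DEGs altogether were 12 upregulated (0.0893%) and 40 downregulated genes (0.298%). The remaining 7 DEGs missed a 2-fold difference in at least 1 clone. Among them, and chosen for naming after their values were seen, *Asns*, *Mmab*, *Cnp* and *Jdp2* fell, and *Pusl1* and *Fbxo5* rose. Irrespective of size, all clones lay above the wildtype range for 1172 genes (8.72%) and below it for 1464 (10.9%).

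The number of DEGs rested on single libraries far more than the number of genes that changed in every clone. Without wildtype library 1, 2, 3 or 4, there were 1, 55, 29 and 2 DEGs, and without Kat5/1, Kat5/2 or Kat5/3 there were 903, 31 and 4. The genes changed in every remaining clone were 194 to 273 when a wildtype library was left out. They were 797 without Kat5/1, 349 without Kat5/2 and 294 without Kat5/3, where the rule asks for agreement of fewer clones. With DESeq2, 535 genes were DEGs, including all 52.

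**Figure D1:**
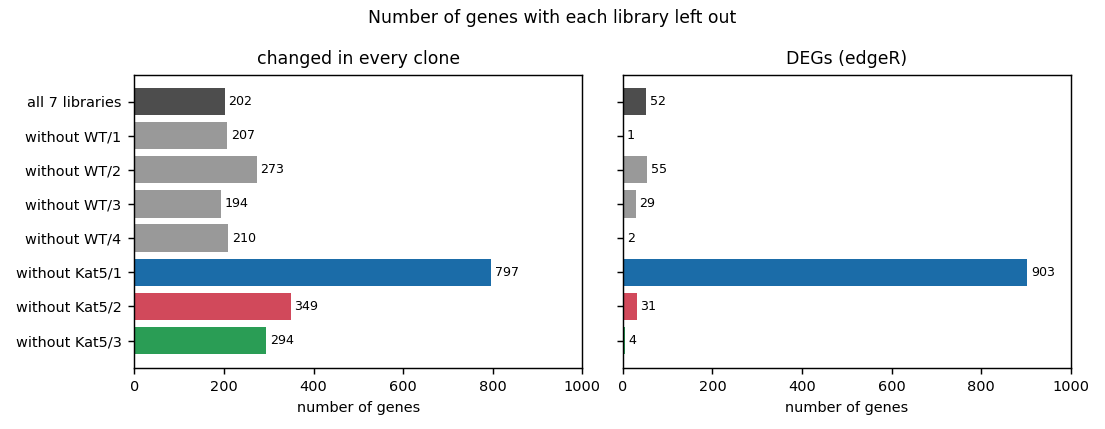
Number of genes changed in every clone (left) and number of DEGs from edgeR's quasi-likelihood test (right) with all 7 libraries and with each library left out, on axes in genes. The left bars stay between 194 and 273 for the 4 wildtype libraries, whereas the right bars range from 1 without wildtype library 1 to 903 without Kat5/1.

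Several targets of ATF4 were among the genes lower in every clone. ATF4 is a transcription factor that is translated under amino acid shortage and other stresses and, with C/EBP partners, activates genes of amino acid supply and stress adaptation. Of 17 genes of this response tested, 4 fell as DEGs, 5 were lower in all 3 clones and 11 lay below the wildtype range in all clones, compared with 0.298%, 1.3% and 10.9% of all genes. The median log2-fold change of the list was −1.28, against 0.00 for all genes tested, and the medians of the single clones were −1.01, −1.33 and −1.30. Those of wildtype libraries 1 to 4 were 0.03, −0.51, 0.48 and −0.17. Every clone was thus below each wildtype library, but wildtype library 3 was the highest and library 2 the lowest. Without wildtype library 3 the median was −0.97.

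*Trib3* (ENSMUSG00000032715, chromosome 2 from 152337422 to 152344032 on the minus strand), which codes for a pseudokinase that restrains ATF4 and AKT signaling, had 1937, 599, 2437 and 1677 normalized counts in wildtype libraries and 85.5, 136 and 162 in the clones. It fell in every clone, a difference of −3.70 ± 0.50 on the log2 scale (SE; edgeR adjusted p = 0.0282). *Chac1*, a glutathione-degrading enzyme, had 1497, 890.1, 2993 and 1269.9 in wildtype libraries and 237, 259 and 297 in the clones, a difference of −2.65 ± 0.41 on the log2 scale (SE; edgeR adjusted p = 0.0444). The clones differed little from each other, while wildtype library 3 was well above the other 3. *Nupr1*, a stress-induced chromatin protein, had 1182, 987, 2275 and 1025 in wildtype libraries and 288, 251 and 263 in the clones, a difference of −2.35 ± 0.33 on the log2 scale (SE; edgeR adjusted p = 0.0334). *Vldlr*, a lipoprotein receptor, had 2198, 1556, 3059 and 2359.6 in wildtype and 496, 656 and 538 in the clones, a difference of −2.02 ± 0.25 on the log2 scale (SE; edgeR adjusted p = 0.0215). Both fell to a similar level in all clones. *Atf5*, a related transcription factor, was lower in each clone (1434, 888 and 875 against 4367, 2337, 4746 and 2647) but missed the threshold with an adjusted p of 0.057 from edgeR. *Atf4* itself had 19355, 16669, 23733 and 17024 in wildtype libraries and 9441, 14437 and 13313 in the clones (adjusted p = 0.124 from edgeR). It lay below the wildtype range in each clone but missed the 2-fold limit in Kat5/2 and Kat5/3. *Adm2*, a peptide hormone of the calcitonin family, was not on the list and had 229.6, 142, 89.4 and 199 in wildtype libraries and 7.21, 15.7 and 13.7 in the clones, a difference of −3.74 ± 0.50 on the log2 scale (SE; edgeR adjusted p = 0.0261).

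ATF4 and C/EBP proteins bind together to the C/EBP-ATF response element, and promoters of genes that fell were therefore searched for its core letters TGATGNAA on both strands. Windows of 250 bases before and 50 bases after the gene start were taken from RefSeq (GRCm38.p6), and 29 of the 35 DEGs lower in all 3 clones had a window. The letters occurred in 6 of the 29 genes (20.7%), in 0 of the 5 upregulated DEGs with a window and in 256 of 9486 genes tested that had a window by symbol (2.7%). Over all 32851 windows the share was 3.97%. The 6 windows are shown because they belong to genes that fell in all clones, with the matching letters in capitals. A match is a description of the sequence and not a measured binding site.
*Trib3*, chr2:152344011-152344310, minus strand: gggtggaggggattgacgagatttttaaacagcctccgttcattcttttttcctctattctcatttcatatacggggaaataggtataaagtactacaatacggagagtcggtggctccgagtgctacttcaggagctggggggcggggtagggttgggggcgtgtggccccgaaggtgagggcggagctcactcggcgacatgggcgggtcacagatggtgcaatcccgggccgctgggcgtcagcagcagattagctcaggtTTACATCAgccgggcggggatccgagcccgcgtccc
*Chac1*, chr2:119350992-119351291, plus strand: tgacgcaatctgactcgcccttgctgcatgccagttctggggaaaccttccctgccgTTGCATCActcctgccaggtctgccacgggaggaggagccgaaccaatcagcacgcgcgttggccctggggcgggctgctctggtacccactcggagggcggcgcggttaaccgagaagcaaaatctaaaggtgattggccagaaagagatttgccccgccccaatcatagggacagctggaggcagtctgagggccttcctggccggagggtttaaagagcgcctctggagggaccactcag
*Nupr1*, chr7:126625421-126625720, minus strand: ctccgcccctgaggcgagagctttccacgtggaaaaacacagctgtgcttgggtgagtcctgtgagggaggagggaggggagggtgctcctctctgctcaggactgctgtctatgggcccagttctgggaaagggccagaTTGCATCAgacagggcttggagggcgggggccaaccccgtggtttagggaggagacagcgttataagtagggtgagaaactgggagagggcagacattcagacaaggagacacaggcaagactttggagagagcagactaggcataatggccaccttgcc
*Pck2*, chr14:55540016-55540315, plus strand: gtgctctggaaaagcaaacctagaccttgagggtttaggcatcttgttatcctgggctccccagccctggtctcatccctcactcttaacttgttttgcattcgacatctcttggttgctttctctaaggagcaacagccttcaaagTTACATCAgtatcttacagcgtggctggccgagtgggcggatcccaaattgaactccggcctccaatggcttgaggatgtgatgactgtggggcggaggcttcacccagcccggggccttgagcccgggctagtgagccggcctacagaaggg
*Vldlr*, chr19:27216770-27217069, plus strand: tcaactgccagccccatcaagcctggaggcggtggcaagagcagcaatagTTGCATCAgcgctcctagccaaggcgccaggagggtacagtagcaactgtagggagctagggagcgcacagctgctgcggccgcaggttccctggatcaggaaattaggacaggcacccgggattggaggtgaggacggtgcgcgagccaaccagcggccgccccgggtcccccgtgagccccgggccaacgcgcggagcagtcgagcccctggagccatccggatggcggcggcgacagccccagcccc
*Lrrc17*, chr5:21543277-21543576, plus strand: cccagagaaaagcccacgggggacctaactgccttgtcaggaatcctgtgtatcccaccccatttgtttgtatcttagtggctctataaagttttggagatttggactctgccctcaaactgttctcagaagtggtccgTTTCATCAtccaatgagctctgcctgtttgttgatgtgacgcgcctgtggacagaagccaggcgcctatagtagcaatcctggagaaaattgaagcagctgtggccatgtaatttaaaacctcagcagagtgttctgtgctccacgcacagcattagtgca
In each window the capitals are the reverse complement of the motif. They begin 15 bases after the start in *Trib3*, and in the other windows 103 to 200 bases before it. *Vldlr* had a second window in RefSeq, which did not hold the letters. No window was given for *Cth* or *Aldh1l2*.

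Enzymes that supply amino acids and one-carbon units changed unevenly, with a few large decreases in all clones. These pathways make serine, glycine, asparagine, cysteine and the folate-bound carbon used for nucleotides. Of 23 genes tested, 5 fell as DEGs (background 0.298%), 4 of these were lower in all 3 clones (background 1.3%), and 8 lay below the wildtype range (background 10.9%). In the other direction, 2 lay above the range (background 8.72%), and log2-fold changes were positive for 9 of the 23. The median log2-fold change of the list was −0.21, with −0.82 in Kat5/1, −0.04 in Kat5/2 and −0.12 in Kat5/3. *Aldh1l2*, the mitochondrial 10-formyltetrahydrofolate dehydrogenase, had 4384, 1725, 3772 and 4349 normalized counts in wildtype libraries and 252, 214 and 638 in the clones, a difference of −3.27 ± 0.49 on the log2 scale (SE; edgeR adjusted p = 0.0427). *Cth*, which makes cysteine from cystathionine, had 452, 278, 274 and 473 in wildtype and 51.5, 54.5 and 12.9 in the clones, a difference of −3.23 ± 0.54 on the log2 scale (SE; edgeR adjusted p = 0.0496). The decrease was largest in Kat5/3 for *Cth* and smallest in Kat5/3 for *Aldh1l2*. *Gpt2*, the mitochondrial alanine aminotransferase, had 3856, 3004, 6009.6 and 4191 in wildtype libraries and 552, 866 and 642 in the clones, a difference of −2.64 ± 0.28 on the log2 scale (SE; edgeR adjusted p = 0.0172). *Pck2*, the mitochondrial phosphoenolpyruvate carboxykinase, had 7576, 4873, 8477 and 7159.6 in wildtype and 1602, 1413 and 1905 in the clones, a difference of −2.10 ± 0.22 on the log2 scale (SE; edgeR adjusted p = 0.0172). Both met the rule for a change in all 3 clones, which requires values below every wildtype library. *Asns*, the asparagine synthetase, had 8933, 7188, 10605 and 9466 in wildtype and 2768, 4612 and 3752 in the clones, a difference of −1.29 ± 0.21 on the log2 scale (SE; edgeR adjusted p = 0.0483), and missed the 2-fold limit in Kat5/2. The glycine transporter gene *Slc6a9* was the only 1 of 15 amino acid transporter genes tested that was lower in all clones (background 1.3%), with 1769, 591, 3646 and 1665 in wildtype and 320.3, 471 and 537 in the clones (adjusted p = 0.0897 from edgeR). Of 20 aminoacyl-tRNA synthetases, 3 lay below and 1 above the wildtype range in every clone, shares near or under those of all genes, and at the low background of DEGs their count of 0 says nothing about these genes.

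Many genes of cholesterol synthesis and uptake lay below the wildtype range in all clones. They are controlled by SREBP transcription factors, which are activated when sterols are scarce. Of 25 genes tested, 16 lay below the wildtype range in every clone (background 10.9%) and 0 lay above it. In all 3 clones, 6 were lower (background 1.3%), and 1 fell as a DEG (background 0.298%). The median log2-fold change was −0.97, and −0.76, −0.79 and −1.04 in the clones, against −0.46 to 0.36 in the wildtype libraries. The DEG was *Pmvk*, the phosphomevalonate kinase, with 3031, 1889, 2559 and 2801 normalized counts in wildtype libraries and 985, 1107 and 930.0 in the clones, a difference of −1.35 ± 0.19 on the log2 scale (SE; edgeR adjusted p = 0.0334). *Fdps*, the farnesyl diphosphate synthase, had 17060.4, 9994, 12029 and 17591 in wildtype and 6334, 4471 and 3858 in the clones (adjusted p = 0.0501 from edgeR). Both genes met the rule for a change in all 3 clones, which requires every clone to lie below every wildtype library. *Lss*, *Mvd* and *Tm7sf2* were also among the 6 genes, with adjusted p between 0.0651 and 0.0709 from edgeR.

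Among 14 fatty acid genes, *Acss2* and *Scd2* fell as DEGs (background 0.298%), and these and *Scd1* were lower in all clones (background 1.3%). Of the 14 genes, 6 lay below the wildtype range in every clone (background 10.9%) and 0 above it. *Acss2* makes acetyl-CoA from acetate and had 1058, 459, 696 and 986 normalized counts in wildtype libraries and 191, 119.9 and 151 in the clones, a difference of −2.38 ± 0.34 on the log2 scale (SE; edgeR adjusted p = 0.0365). *Scd2*, a stearoyl-CoA desaturase, had 102667, 72456, 76486 and 108169 in wildtype and 34720.5, 31615 and 33475 in the clones, a difference of −1.43 ± 0.18 on the log2 scale (SE; edgeR adjusted p = 0.023). *Scd1* had 20313, 9829.6, 14619 and 23188 in wildtype and 5027, 5927 and 4235 in the clones (adjusted p = 0.0501 from edgeR). That the clones and wildtype libraries did not overlap for these 3 genes follows from the rule for a change in all clones. *Fasn*, the fatty acid synthase, overlapped between the groups, with 18559.7, 12677, 24692 and 17336 in wildtype libraries and 16185, 28207 and 28718 in the clones.

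The largest decrease of all DEGs changed in every clone was that of *Lrrc17* (ENSMUSG00000039883, chromosome 5 from 21543559 to 21575904 on the plus strand), a secreted leucine-rich repeat protein whose gene overlaps *Fbxl13* on the opposite strand. It had 824, 143, 196 and 841 normalized counts in wildtype libraries, and 0 counts in Kat5/1, 0 in Kat5/2 and 4 in Kat5/3 (adjusted p = 0.0334 from edgeR). Taking 3 counts per library as the floor, it was at least 162-fold lower in Kat5/1 and at least 138-fold lower in Kat5/2 than the wildtype mean. Wildtype libraries 1 and 4 were also far above 2 and 3. *Tnn*, the matrix glycoprotein tenascin-N, had 1012, 203, 652 and 1052 in wildtype and 31.9, 16.95 and 17.8 in the clones, a difference of −5.03 ± 0.65 on the log2 scale (SE; edgeR adjusted p = 0.023). *Rgs8*, a regulator of G protein signaling, had 208, 263, 959 and 204 in wildtype and 7.21, 6.06 and 20.2 in the clones, a difference of −5.14 ± 0.82 on the log2 scale (SE; edgeR adjusted p = 0.0466). *Chrm3*, the muscarinic acetylcholine receptor M3, had 282, 563, 295 and 298 in wildtype and 29.9, 48.4 and 25.9 in the clones, a difference of −3.37 ± 0.41 on the log2 scale (SE; edgeR adjusted p = 0.0215). For *Tnn*, the wildtype libraries spread from 203 to 1052 and the clones from 16.95 to 31.9. For *Chrm3*, wildtype library 2 was above the other wildtype libraries, which were alike, and the clones spread from 25.9 to 48.4. Below the threshold of the test, *Atp2a3*, a calcium pump of the endoplasmic reticulum, had 565, 67.3, 154 and 552 in wildtype libraries and 0, 6.06 and 0.808 in the clones (adjusted p = 0.0501 from edgeR).

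Other decreases were in metabolic and chromatin genes. *Adssl1*, which converts IMP toward AMP, had 1388, 1709, 1960.3 and 1272 normalized counts in wildtype libraries and 238, 201 and 238 in the clones, a difference of −2.81 ± 0.21 on the log2 scale (SE; edgeR adjusted p = 0.00782). Among Kat5 and the 24 other DEGs named by size, it alone was called in all 7 fits that left out a library, and the other 24 were called in 1 to 5 of them. *Aldoc*, a fructose-bisphosphate aldolase and the only DEG among 19 glycolytic genes tested (background 0.298%), had 604, 297, 583 and 582 in wildtype and 67.97, 36.3 and 38.8 in the clones, a difference of −3.43 ± 0.39 on the log2 scale (SE; edgeR adjusted p = 0.0208). *Gstm7*, a glutathione S-transferase, had 114, 111, 232 and 113 in wildtype and 8.24, 8.48 and 10.5 in the clones, a difference of −3.95 ± 0.45 on the log2 scale (SE; edgeR adjusted p = 0.0215). *Gsta4*, a glutathione S-transferase and the only DEG among 18 NRF2 targets (background 0.298%), had 3051, 2814, 3252 and 3124 in wildtype and 1141, 1131 and 1023 in the clones, a difference of −1.48 ± 0.13 on the log2 scale (SE; edgeR adjusted p = 0.00924). Both transferases had nearly equal values in the 3 clones. *Brdt*, a bromodomain protein known from male germ cells, had 210.2, 162, 183 and 221 in wildtype and 33.99, 18.2 and 21.01 in the clones, a difference of −2.98 ± 0.36 on the log2 scale (SE; edgeR adjusted p = 0.0215). *Dennd3*, an exchange factor for Rab proteins, had 324, 253, 729.7 and 305 in wildtype and 57.7, 48.4 and 47.7 in the clones, a difference of −2.97 ± 0.44 on the log2 scale (SE; edgeR adjusted p = 0.0383). Wildtype library 3 was above the others for *Gstm7* and *Dennd3*, and wildtype library 2 below them for *Aldoc*.

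Genes that rose in every clone were fewer. *Egr1* (ENSMUSG00000038418, chromosome 18 from 34859823 to 34864984 on the plus strand), an immediate early transcription factor, had 187, 241, 146 and 154 normalized counts in wildtype libraries and 1056, 1258 and 983 in the clones, a difference of 2.59 ± 0.23 on the log2 scale (SE; edgeR adjusted p = 0.00924). It was the only 1 of 23 immediate early genes that was a DEG (background 0.0893%). Chromosome 18, where *Egr1* and *Hbegf* lie, had a median log2 difference of 0.33 in Kat5/1, −0.08 in Kat5/2 and 0.23 in Kat5/3. *Hbegf*, a ligand of the EGF receptor, had 1911, 2708, 1810.0 and 1701 in wildtype and 4072, 4716 and 5886 in the clones, a difference of 1.27 ± 0.20 on the log2 scale (SE; edgeR adjusted p = 0.0466).

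YAP and TAZ are coactivators of TEAD transcription factors that respond to cell shape and the Hippo pathway. Of 22 of their targets tested, 3 rose as DEGs (background 0.0893%), 8 lay above the wildtype range in every clone (background 8.72%) and 0 lay below it. The median log2-fold change of the list was 0.70, with 0.44, 0.52 and 0.63 in the clones. *Ctgf*, a matricellular protein, had 329, 283, 296 and 289 normalized counts in wildtype libraries and 787, 1719.7 and 3866 in the clones, a difference of 2.83 ± 0.45 on the log2 scale (SE; edgeR adjusted p = 0.0466). The increase was smallest in Kat5/1 and largest in Kat5/3. *Cyr61*, a related protein, had 2569.8, 2649.8, 1126 and 2247 in wildtype and 5810.4, 7321 and 9650.1 in the clones, a difference of 1.82 ± 0.30 on the log2 scale (SE; edgeR adjusted p = 0.0488). *Edn1*, the endothelin that patterns the lower jaw, had 18.1, 31.5, 12.8 and 20.02 in wildtype and 105, 231 and 128 in the clones, a difference of 2.90 ± 0.44 on the log2 scale (SE; edgeR adjusted p = 0.0442). *Edn1* was low in wildtype cells and above 100 normalized counts only in the clones.

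The other named increases belonged to different functions. *Tfrc*, the transferrin receptor for iron uptake, had 2691, 2222, 2318 and 3408 normalized counts in wildtype libraries and 8167, 11639 and 10865 in the clones, a difference of 1.94 ± 0.19 on the log2 scale (SE; edgeR adjusted p = 0.0172). *Id1*, a target of BMP signaling, had 588, 525, 559 and 329 in wildtype and 1427, 1595 and 2605 in the clones, a difference of 1.91 ± 0.28 on the log2 scale (SE; edgeR adjusted p = 0.0365). *Sema3c*, a guidance molecule of migrating neural crest, had 229.6, 304, 137 and 238 in wildtype and 954, 1183 and 975 in the clones, a difference of 2.19 ± 0.27 on the log2 scale (SE; edgeR adjusted p = 0.0215). For *Sema3c* and *Tfrc* the 3 clones were alike, and for *Id1* Kat5/3 stood above the others. *Klhl21*, an adaptor of a ubiquitin ligase, had 938, 1071, 952 and 838 in wildtype and 2965, 2066 and 2149 in the clones, a difference of 1.33 ± 0.17 on the log2 scale (SE; edgeR adjusted p = 0.023). *Ptprk*, a receptor tyrosine phosphatase, had 1668, 1930.1, 1814 and 1826 in wildtype and 4322, 3685 and 4337 in the clones, a difference of 1.19 ± 0.13 on the log2 scale (SE; edgeR adjusted p = 0.0172). Both showed a narrow range in wildtype libraries.

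**Figure D2:**
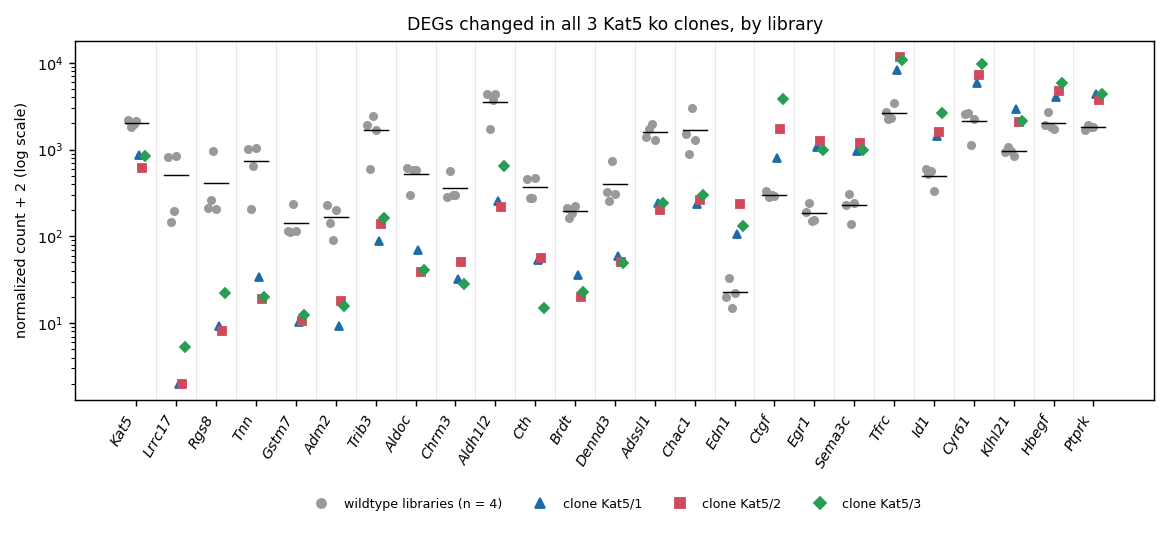
Normalized counts plus 2 on a log axis for *Kat5*, the 14 largest decreases and the 10 largest increases among DEGs changed in all 3 clones. Gray points are the 4 wildtype libraries with their mean as a black line, and colored points are the clones. The clones lie on the same side of all wildtype libraries for every gene, which the rule requires of all but *Kat5*.

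Functions with many small differences showed a graded picture over the clones. Ribosome biogenesis factors, which process ribosomal RNA in the nucleolus, had positive log2-fold changes for all 49 genes tested, and 24 lay above the wildtype range in all clones (background 8.72%). Of the 49, 0 were upregulated DEGs (background 0.0893%) and 0 were higher in all 3 clones by the 2-fold rule (background 0.208%). At these backgrounds, both counts of 0 say nothing about the list. Their median log2 difference was 0.16 in Kat5/1, 1.05 in Kat5/2 and 0.86 in Kat5/3, against −0.11 to 0.07 in wildtype libraries. Single-clone tests called 0, 28 and 13 of the 49 as higher (background 0.141%, 2.13% and 1.56%). At so low a background, the 0 in Kat5/1 is no result about this list. *Bop1*, which is needed to mature the large ribosomal subunit, had 5044, 5216, 4863 and 4433 normalized counts in wildtype libraries and 4276, 12556 and 12928 in the clones. *Npm1*, the abundant nucleolar chaperone, had 63829, 70399, 62314 and 73015 in wildtype and 45623, 130673 and 107532 in the clones. For these genes, which have the largest spread between clones in the list, Kat5/1 was below every wildtype library while Kat5/2 and Kat5/3 were above. Translation initiation factors (medians −0.10, 0.43 and 0.44) and DNA replication genes (medians 0.05, 0.57 and 0.36) were also nearest to wildtype in Kat5/1. Of 33 and 35 genes tested, 7 and 11 lay above the wildtype range in all clones (background 8.72%). Their count of 0 DEGs is no result at backgrounds of 0.0893% upregulated and 0.298% downregulated genes. *Mcm5*, a subunit of the replicative helicase, had 8889.6, 8643, 8424 and 8662 in wildtype and 7115, 16972 and 10981 in the clones.

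**Figure D3:**
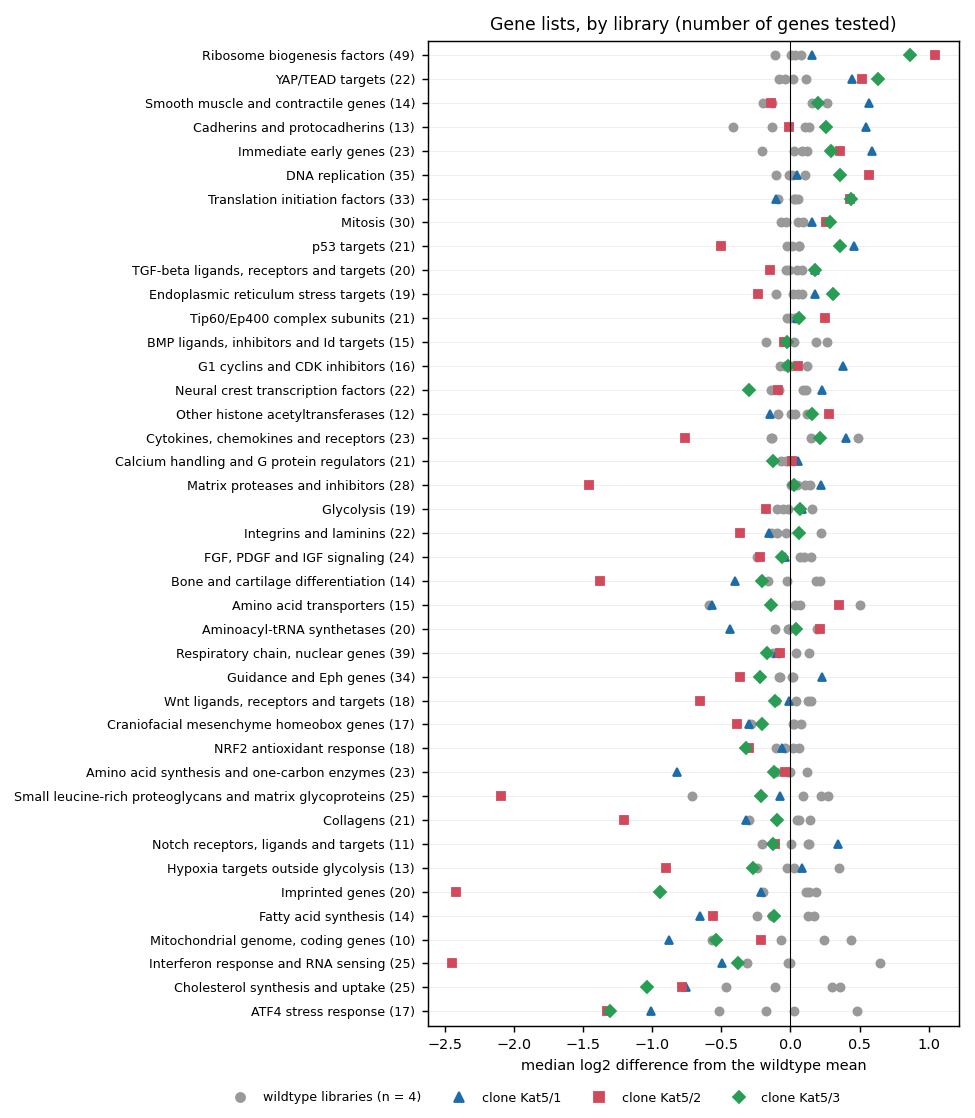
Median log2 difference from the wildtype mean (horizontal axis) of the genes tested in each of 41 lists (vertical axis, with the number of genes). Gray points are the wildtype libraries and colored points the clones. All clones lie below the wildtype libraries for ATF4 targets and for cholesterol, interferon and imprinted genes. Kat5/2 lies farthest to the left for interferon, imprinted and matrix genes.

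Many differences from wildtype were not shared by all clones. At least a 2-fold difference from the wildtype mean together with a value outside the wildtype range was found for 975 genes in Kat5/1 (421 higher and 554 lower), 1642 in Kat5/2 (439 and 1203) and 1354 in Kat5/3 (444 and 910). Clone-wise tests were made with edgeR's quasi-likelihood test using a mean for wildtype and for each clone, so that the spread came from the wildtype libraries alone and each clone was assumed to vary like them. Against wildtype, Kat5/1 had 19 genes called higher (0.141%) and 17 lower (0.127%), Kat5/2 had 286 (2.13%) and 632 (4.7%), and Kat5/3 had 210 (1.56%) and 294 (2.19%). A gene was taken to depend on a clone if this clone differed at least 2-fold in the same direction from wildtype and from the mean of the other clones, both with an adjusted p of at most 0.05. This held in Kat5/1 for 13 higher (0.0968%) and 10 lower genes (0.0744%), in Kat5/2 for 3 higher (0.0223%) and 49 lower (0.365%), and in Kat5/3 for 3 higher (0.0223%) and 3 lower (0.0223%). These numbers depended on the wildtype spread. Without wildtype library 3 they were 248, 391 and 85 for Kat5/1, Kat5/2 and Kat5/3, and without wildtype library 2 they were 59, 94 and 7. Without wildtype library 1 they were 0, 0 and 1, as they were without library 4. Without Kat5/1, 20 genes depended on Kat5/2, without Kat5/3 there were 368, and without Kat5/2 there were 8 for Kat5/1 and 18 for Kat5/3.

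Single-clone tests called 10 genes in all 3 clones with the same direction. *Adssl1*, *Gsta4*, *Egr1*, *Klhl21*, *Ptprk* and *Ctgf*, which are DEGs described above, were among them. The others, which were chosen for naming after their values were seen, were *Col4a6*, *Crabp2*, *Tcf7* and *Fbxo36*, and all were lower. *Col4a6*, a collagen of basement membranes, had 686, 464, 551 and 676 normalized counts in wildtype libraries and 39.1, 9.69 and 114 in the clones. *Tcf7*, a transcription factor of Wnt signaling, had 649, 968, 777 and 736 in wildtype and 115, 317 and 257 in the clones. *Fbxo36*, an F-box protein, had 656, 557, 604 and 642 in wildtype and 126, 194 and 275 in the clones. These genes changed in every clone but to a different degree, and their adjusted p in the comparison of the groups was 0.069, 0.065 and 0.0513 from edgeR. *Bdnf*, a neurotrophin, was called in all clones with opposite signs, with 736, 784, 828 and 824 in wildtype libraries and 1994, 356 and 1888 in the clones.

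Clone Kat5/1 stood apart by smooth muscle genes. *Acta2* (ENSMUSG00000035783, chromosome 19 from 34241090 to 34255590 on the minus strand), the smooth muscle actin, had 523, 209.5, 213 and 577 normalized counts in wildtype libraries and 18859.7, 16.95 and 755 in the clones. It rose in Kat5/1 and was higher than in the other clones, with a log2 difference of 7.38 from the other clones (adjusted p = 0.0126 from edgeR). *Tagln*, the actin-binding protein transgelin, had 51.95, 6.51, 33.4 and 45.1 in wildtype libraries and 6728, 0 and 116 in the clones, with a log2 difference of 10.79 from the other clones (adjusted p = 0.0126 from edgeR). *Myl9*, a regulatory light chain of myosin, had 49.5, 19.5, 15.7 and 31.7 in wildtype and 771, 1.21 and 9.70 in the clones, with a log2 difference of 7.73 from the other clones (adjusted p = 0.0137 from edgeR). All 3 genes were high in Kat5/1 and below every wildtype library in Kat5/2. The size of these differences was set in part by the low values in Kat5/2. Without that clone they were 4.63 for *Acta2*, 5.85 for *Tagln* and 6.28 for *Myl9*, with adjusted p between 0.0659 and 0.0744 from edgeR. Summed normalized counts of 5 smooth muscle markers were 219 to 628 in wildtype libraries and 25644, 16.95 and 879.9 in the clones. Only 2 of the 5, *Acta2* and *Tagln*, exceeded 100 normalized counts in any library, so that the sum mostly repeats these 2 genes. The skeletal muscle genes *Myod1*, *Myog* and *Myf5* were at 0. Of 14 contractile genes tested, 3 were higher and depended on Kat5/1 (background 0.0968%) and 1 was lower and depended on Kat5/2 (background 0.365%), and the list's median was 0.57 in Kat5/1, −0.14 in Kat5/2 and 0.20 in Kat5/3. *Mylk*, the myosin light chain kinase, was lower in every clone, with 376, 170.4, 153 and 384 in wildtype and 98.9, 70.2 and 113 in the clones (adjusted p = 0.102 from edgeR). The part that a different mix of cells may have in these values was not tested.

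Other genes rose in Kat5/1 without belonging to this list. *Crmp1*, a cytoskeletal protein of neurons, had 13.3, 16.3, 0.982 and 8.34 normalized counts in wildtype libraries and 978, 0 and 2.42 in the clones, with a log2 difference of 10.76 from the other clones (adjusted p = 0.018 from edgeR). *Galnt18*, a glycosyltransferase, had 73.7, 104, 93.3 and 70.1 in wildtype and 548, 20.6 and 36.4 in the clones, with a log2 difference of 4.32 from the other clones (adjusted p = 0.0126 from edgeR). Without Kat5/2 these differences were 8.57 and 3.89 (adjusted p = 0.0721 and 0.0537 from edgeR). *Crmp1* overlaps *Evc*, and *Tagln* overlaps *Pcsk7*, on the opposite strand.

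Other genes had few or no reads in Kat5/1. *Sox11* (ENSMUSG00000063632, chromosome 12 from 27334264 to 27342574 on the minus strand), a transcription factor of neural crest and neural progenitors, had 275, 382, 1216 and 299.5 normalized counts in wildtype libraries and 0, 1566 and 1456 in the clones. It was at least 176-fold lower in Kat5/1 than the wildtype mean, which wildtype library 3 raised. In the other clones it was above every wildtype library. By the rule above, *Sox11* was not called as dependent on Kat5/1. *Arsj*, a sulfatase, had 221, 295, 137 and 224 in wildtype and 0, 672 and 328 in the clones, at least 71.0-fold lower in Kat5/1. It was also called as dependent on Kat5/2, where it was above wildtype, with a log2 difference of 6.71 from the other clones (adjusted p = 0.0264 from edgeR). That value rested on the 0 in Kat5/1, and without Kat5/1 it was 1.04 (adjusted p = 0.608 from edgeR). *Ephx2*, the soluble epoxide hydrolase, had 167, 174, 200.4 and 157 in wildtype and 2.06, 53.3 and 383 in the clones, with 2 raw counts in Kat5/1. *Scube3*, a secreted glycoprotein, had 62.8, 52.1, 761 and 61.7 in wildtype and 3.09, 173 and 52.5 in the clones, with 3 raw counts in Kat5/1. These were the only 4 genes with at most 3 counts in Kat5/1 and over 50 normalized counts in all other libraries, a rule chosen after values had been seen. *Pdlim4*, which binds actin filaments, had 1198, 1229.9, 636 and 841 in wildtype and 20.6, 266 and 1075 in the clones, with a log2 difference of −4.69 from the other clones (adjusted p = 0.018 from edgeR). *Crabp2*, a retinoic acid-binding protein, had 2778, 1906, 2499 and 2884 in wildtype and 101, 986 and 229 in the clones, with a log2 difference of −2.24 from the other clones (adjusted p = 0.0222 from edgeR). *Crabp2* was lower in every clone, and lowest in Kat5/1. Without Kat5/2 its difference from the remaining clone was −1.20 (adjusted p = 0.133 from edgeR).

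Clone Kat5/2 had the most genes with few or no reads. By the same rule, 16 genes had at most 3 counts in Kat5/2, of which 8 were at 0 and 8 at 1 to 3 counts, compared with 4 in Kat5/1 and 0 in Kat5/3, while 0 genes with a mean over 100 in wildtype were at or below 3 counts in all clones. *Arhgef5* (ENSMUSG00000033542, chromosome 6 from 43265582 to 43289320 on the plus strand), an exchange factor for small GTPases, had 1068, 1091, 1204 and 1242 normalized counts in wildtype libraries and 206, 0 and 749.8 in the clones. It was at least 317-fold lower in Kat5/2. *Gli2*, a transcription factor of Hedgehog signaling, had 70.1, 147, 129 and 78.4 in wildtype and 444, 0 and 162 in the clones, at least 29.2-fold lower. *Gata6*, a transcription factor of mesoderm, endoderm and smooth muscle, had 112, 207, 98.2 and 115 in wildtype and 207, 0 and 149 in the clones, at least 36.7-fold lower. In the other clones *Gata6* was within the wildtype range and *Gli2* above it. *Snrpn* (ENSMUSG00000102252, the more abundant of 2 entries with this symbol), an imprinted gene of a splicing protein, had 109.9, 151, 109 and 114 in wildtype and 147, 0 and 125 in the clones, at least 33.3-fold lower. *Akip1*, a partner of protein kinase A, had 263, 252, 125 and 277 in wildtype and 97.8, 0 and 183 in the clones, at least 63.1-fold lower. *Fah*, which acts in tyrosine breakdown, had 568, 750.1, 65.8 and 526 in wildtype and 79.3, 0 and 125 in the clones, at least 131-fold lower. With 0 counts, a level of up to 3 counts in that library is still possible. *Dkk3*, a secreted Wnt modulator, had 2207, 1532, 364 and 2296 in wildtype and 7481, 1.21 and 522 in the clones, so that a single raw count in Kat5/2 stood against the highest value in Kat5/1. The remaining genes were *Add2*, *Clip3*, *Fez1*, *Gbp7*, *Medag*, *Rcn3*, *Rin3*, *Sgip1* and *Speg*.

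Several lists had their lowest median in Kat5/2, a difference that was not tested. For 25 genes of the interferon response, the median log2 difference was −0.50 in Kat5/1, −2.45 in Kat5/2 and −0.38 in Kat5/3. Wildtype libraries also varied, from −0.32 to 0.64, but every clone was below them. *Ifit1*, an antiviral protein that binds foreign RNA, had 347, 43.4, 562 and 350.4 normalized counts in wildtype libraries and 24.7, 2.42 and 115 in the clones. Its relative *Ifit3* was lower in every clone, with 168, 34.7, 249 and 194 in wildtype and 27.8, 7.27 and 20.2 in the clones (adjusted p = 0.0787 from edgeR). For 20 imprinted genes, which are read from the maternal or paternal copy only, the medians were −0.21, −2.41 and −0.94, against −0.20 to 0.18 in wildtype libraries. Of these, *H19*, *Cdkn1c* and *Dcn* were lower in all clones (background 1.3%). *Cdkn1c*, a CDK inhibitor, had 169, 155, 645 and 120.1 in wildtype and 17.5, 9.69 and 8.08 in the clones (adjusted p = 0.0501 from edgeR). *H19*, a noncoding RNA, had 176, 249.7, 145 and 181 in wildtype and 40.2, 3.63 and 8.08 in the clones (adjusted p = 0.0729 from edgeR). Other imprinted genes also varied within wildtype. *Grb10*, an adaptor that restrains insulin signaling, had 8513, 8166, 482 and 9144 in wildtype libraries and 22746, 20.6 and 19305 in the clones. *Rian*, a noncoding RNA, had 922, 1055, 27.5 and 919 in wildtype and 1894, 1.21 and 0 in the clones. Both were low in wildtype library 3 as well as in Kat5/2.

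Lists of the extracellular matrix also had their lowest medians in Kat5/2. Medians for proteoglycans and matrix glycoproteins were −0.07, −2.09 and −0.21 in Kat5/1, Kat5/2 and Kat5/3. Those for matrix proteases and their inhibitors were 0.22, −1.46 and 0.03, those for collagens −0.32, −1.20 and −0.10, and those for bone and cartilage genes −0.40, −1.38 and −0.21. Single-clone tests called 5 of 25, 7 of 28, 6 of 21 and 3 of 14 of these genes lower in Kat5/2 (background 4.7%), 0, 0, 1 and 0 lower in Kat5/1 (background 0.127%) and 1, 0, 3 and 0 lower in Kat5/3 (background 2.19%). They called 0, 2, 1 and 0 higher in Kat5/2 (background 2.13%). *Dcn*, the proteoglycan decorin, had 938, 3791, 1814 and 967 normalized counts in wildtype libraries and 607, 89.6 and 113 in the clones (adjusted p = 0.108 from edgeR). *Postn*, the matrix protein periostin, had 1168, 20.6, 412 and 1186 in wildtype and 1421, 2.42 and 16.2 in the clones. *Mmp3*, the protease stromelysin, had 1336, 3049, 4842 and 1519 in wildtype and 14516, 194 and 1909 in the clones. For *Mmp3*, Kat5/1 was above and Kat5/2 below all wildtype libraries. *Aspn*, a relative of decorin, was lower in every clone, with 420.4, 18.5, 97.2 and 587 in wildtype and 2.06, 4.84 and 6.46 in the clones (adjusted p = 0.0705 from edgeR), and *Cenpp* overlaps it on the opposite strand. *Thbs1*, a thrombospondin, was higher in every clone, with 2999.8, 903, 699 and 3072 in wildtype and 4016, 4857 and 15898 in the clones (adjusted p = 0.124 from edgeR).

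The 3 genes that rose in Kat5/2 were *Arsj*, described above, *Anxa10* and *Foxd1*. *Anxa10*, a calcium-binding annexin, had 1126, 2076, 2107 and 1335 normalized counts in wildtype libraries and 361, 6956 and 1302 in the clones, with a log2 difference of 3.34 from the other clones (adjusted p = 0.0388 from edgeR). *Foxd1*, a forkhead factor of mesenchyme, had 239, 155, 238 and 184 in wildtype and 23.7, 556 and 274 in the clones, with a log2 difference of 2.78 from the other clones (adjusted p = 0.0468 from edgeR). Both were below every wildtype library in Kat5/1. Without Kat5/1 the differences were 2.42 (adjusted p = 0.165 from edgeR) for *Anxa10* and 1.02 (adjusted p = 0.518 from edgeR) for *Foxd1*.

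Clone Kat5/3 had few genes of its own. *Serpine2* (ENSMUSG00000026249, chromosome 1 from 79794197 to 79861180 on the minus strand), an inhibitor of serine proteases such as thrombin, had 460.3, 855, 600.1 and 502 normalized counts in wildtype libraries and 690.0, 29.1 and 5663 in the clones, with a log2 difference of 5.32 from the other clones (adjusted p = 0.0159 from edgeR). *Ndn*, the imprinted gene of necdin, had 74.9, 111, 47.1 and 55.9 in wildtype and 3.09, 1.21 and 522 in the clones, with a log2 difference of 7.98 from the other clones (adjusted p = 0.0303 from edgeR). Both were higher in Kat5/3 and lower than every wildtype library in Kat5/2. *Dusp9*, a phosphatase of MAP kinases on the X chromosome, had 1272, 1564, 1501 and 1097 in wildtype and 214, 1502 and 4267 in the clones, with a log2 difference of 2.91 from the other clones (adjusted p = 0.0232 from edgeR). It was called lower in Kat5/1 and higher in Kat5/3. Without Kat5/2 the difference of *Serpine2* was 3.05 (adjusted p = 0.0659 from edgeR) and that of *Ndn* 7.36 (adjusted p = 0.0537 from edgeR), and without Kat5/1 that of *Dusp9* was 1.505 (adjusted p = 0.158 from edgeR). *S1pr3*, a receptor for sphingosine-1-phosphate, had 2015, 1856, 1400.5 and 2030.0 in wildtype and 3564, 515 and 119.6 in the clones, with a log2 difference of −3.50 from the other clones (adjusted p = 0.0303 from edgeR), which was −2.11 without Kat5/1 (adjusted p = 0.0969 from edgeR). *Plxna4*, a semaphorin receptor, had 389, 422, 404 and 467 in wildtype and 391, 315 and 36.4 in the clones, with a log2 difference of −3.27 from the other clones (adjusted p = 0.0476 from edgeR). It was within the wildtype range in Kat5/1 and somewhat below it in Kat5/2, and antisense genes overlap it.

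**Figure D4:**
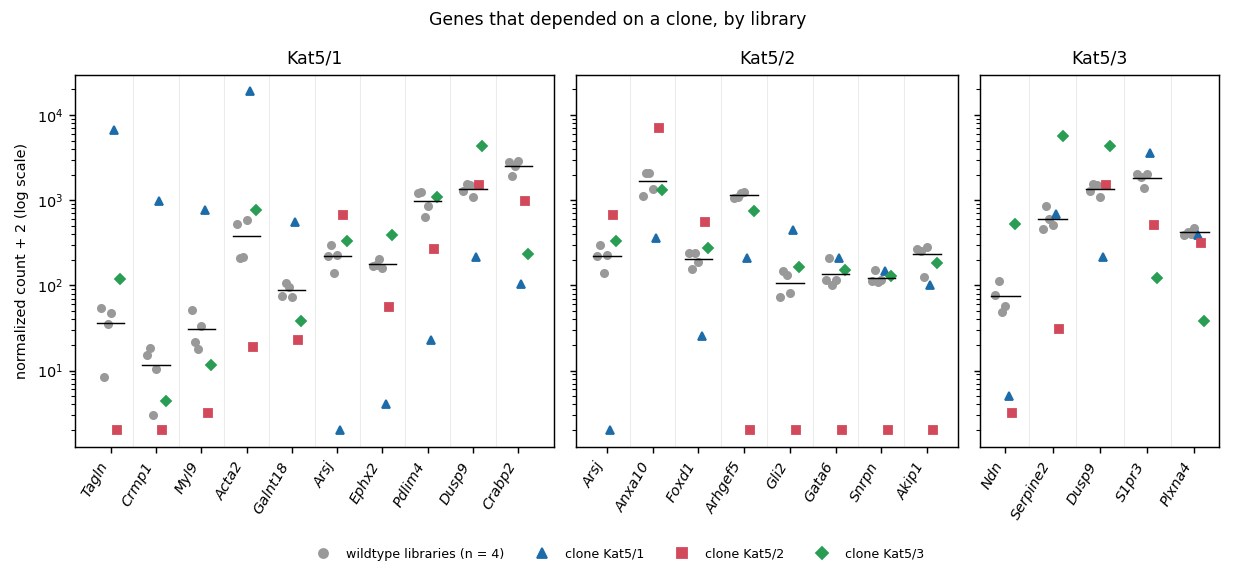
Normalized counts plus 2 on a log axis for the genes named as dependent on Kat5/1, Kat5/2 and Kat5/3, with wildtype libraries in gray, their mean as a black line and the clones in color. *Acta2*, *Tagln* and *Myl9* are high in Kat5/1, and *Arhgef5*, *Gli2*, *Gata6*, *Snrpn*, *Akip1*, *Tagln* and *Crmp1* lie at 0 counts in Kat5/2, at the bottom of the axis.

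Of 22 neural crest transcription factors tested, 1 lay above (background 8.72%) and 0 below the wildtype range in every clone (background 10.9%). With 0.0893% of all genes upregulated and 0.298% downregulated, the count of 0 DEGs among them, and in other lists of this size, is no result about the genes. Their medians were 0.23, −0.09 and −0.30. Within the list, *Sox11* as given above and *Tfap2b*, which acts early in neural crest, had the largest spread between clones. *Tfap2b* had 35.04, 72.7, 765 and 36.7 normalized counts in wildtype libraries and 0, 54.5 and 1.62 in the clones, but wildtype library 3 alone was high. Of 17 craniofacial homeobox genes, 2 lay above and 1 below the wildtype range in every clone. The 35 genes of the Hox clusters were not tested, as none exceeded 5.15 normalized counts in any library. Of 21 p53 targets, 30 mitosis genes and 39 nuclear genes of the respiratory chain, 1, 7 and 1 lay above the range and 0, 0 and 6 below it. In signaling lists, *Bmp2* was lower in all clones, with 1269.8, 2019, 5158 and 1152 in wildtype and 468, 919 and 743 in the clones (adjusted p = 0.124 from edgeR), and so was *Tgfbi*, a matrix protein induced by TGF-beta, with 5745, 4825, 8351 and 5564 in wildtype and 1653, 955 and 377 in the clones (adjusted p = 0.0556 from edgeR). *Fzd4*, a Wnt receptor, had 88.2, 138, 134 and 132 in wildtype and 38.1, 56.9 and 38.8 in the clones (adjusted p = 0.0767 from edgeR).

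Levels of whole chromosomes also differed between clones, over 10654 genes with a mean of at least 100 normalized counts. In Kat5/1 the median log2 difference from the wildtype mean was −0.36 on chromosome 15, −0.28 on chromosome 1, −0.28 on chromosome 12, 0.21 on chromosome 16 and 0.33 on chromosome 18. In Kat5/3 it was −0.36 on chromosome 17, −0.32 on chromosome 19, −0.26 on chromosome 13, −0.21 on chromosome 8, 0.23 on chromosome 15 and 0.23 on chromosome 18. In Kat5/2 no chromosome exceeded 0.16 in either direction. Wildtype library 3 stood at −0.31 on chromosome 16, and wildtype medians otherwise stayed between −0.15 and 0.13. Genes named above that lie where Kat5/1 was shifted include *Adm2*, *Dennd3* and *Bop1* on chromosome 15 and *Tnn*, *Rgs8*, *Serpine2* and *Gli2* on chromosome 1. They also include *Adssl1*, *Sox11*, *Rian* and *Rin3* on chromosome 12, and *Tfrc* and *Mylk* on chromosome 16. Those that lie where Kat5/3 was shifted include *Kat5*, *Vldlr*, *Acta2*, *Scd1*, *Scd2*, *Tm7sf2*, *Ifit1* and *Ifit3* on chromosome 19 and *Scube3* on chromosome 17. They also include *Chrm3*, *Edn1*, *Foxd1*, *S1pr3*, *Tgfbi* and *Aspn* on chromosome 13, and *Anxa10*, *Gpt2*, *Mvd* and *Mcm5* on chromosome 8. On chromosome 15, and on chromosome 18 with *Egr1*, *Hbegf* and *Gata6*, both clones were shifted. After an offset for each chromosome and library, 204 genes changed in all clones, 183 of them shared with the 202, and 58 genes were DEGs. The number of genes per clone that depended on it was then 18, 64 and 8. Copy number was not measured, and its part in these medians was not tested.

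**Figure D5:**
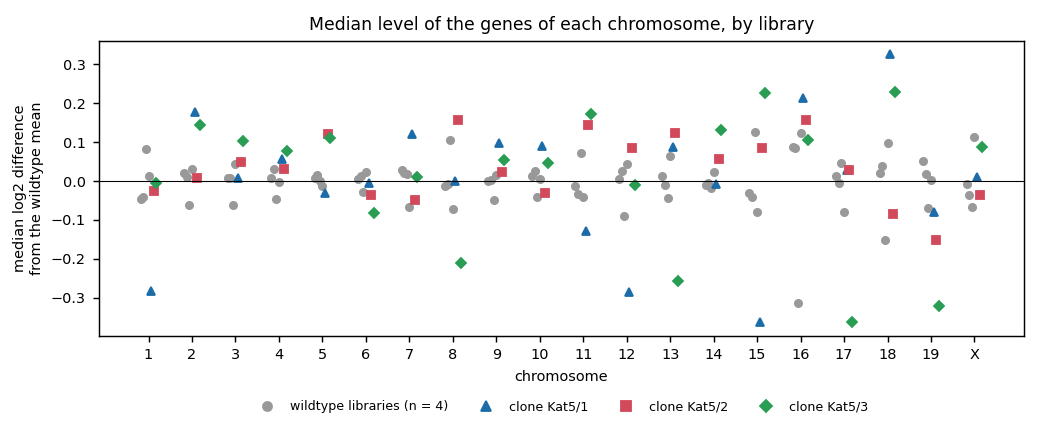
Median log2 difference from the wildtype mean (vertical axis) of the genes on each chromosome (horizontal axis), with wildtype libraries in gray and clones in color. Kat5/1 is lowest on chromosome 15 at −0.36 and Kat5/3 on chromosome 17 at −0.36, whereas Kat5/2 stays near 0.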

How the data were processed

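RNA-seq libraries (RNeasy micro, 100 ng of total RNA, TruSeq Stranded mRNA, mm10) were processed by the authors with bcl2fastq 2.20, STAR 2.7.3, DESeq2 1.36.0 and R 4.2.1, per the labels. The authors deposited raw counts of reads per gene. The counting program, its annotation and its strand setting are not given in the sources used here, so reads of overlapping genes may be shared, and 21 of the 46 genes named by rule have a gene on the opposite strand. The deposited normalized tables were not used, and some genes are not reported here.

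Samples were grouped by their labels. With R 4.3.3 and edgeR 4.0.16, filterByExpr removed genes of low count, TMM set the normalization, and glmQLFit and glmQLFTest made the tests, with Benjamini-Hochberg adjustment over 13434 genes. Normalized counts are counts scaled to the mean effective library size, and log2 differences of single libraries used a prior count of 2. The biological coefficient of variation was 0.342 for 2 groups and 0.260 with a mean per clone. Counting error is small at these depths. The members and gene lists were chosen with earlier results of these data known. Named were *Kat5*, the 14 largest decreases and 10 largest increases among DEGs changed in all clones, up to 5 increases and 5 decreases per clone, and, in lists, genes called or changed in all clones and those with the largest spread. Scripts were tested on simulated data. Alternatives used DESeq2 1.42.0, limma 3.58.1, other normalizations and filters, a replicate block, all 10 libraries and each library left out. Positions are those of GENCODE M21 (GRCm38).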

Additional observations from a re-analysis of the deposited data

Results flagged for a closer look

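In 9 of 100 wildtype groups examined, over named genes and list medians, the gap of 1 of the 4 libraries to its neighbor as a share of the range exceeded Dixon's critical value, where chance gives about 1 in 20. Wildtype library 3 was apart for *Rgs8* (0.923), *Gstm7* (0.977), *Dennd3* (0.851), *Nupr1* (0.849) and *Cdkn1c* (0.907). Wildtype library 2 was apart for *Aldoc* (0.927), *Chrm3* (0.942) and the median of the craniofacial homeobox genes (0.847), and wildtype library 1 for *Fzd4* (0.878).

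A clone differed from the mean of the other clones in edgeR's test for the genes named per clone, and the fitted log2 differences depend on the prior count where a clone is at 0. In Kat5/1 they were 10.79 for *Tagln*, 10.76 for *Crmp1*, 7.73 for *Myl9*, 7.38 for *Acta2*, 4.32 for *Galnt18*, −11.88 for *Arsj*, −6.03 for *Ephx2*, −4.69 for *Pdlim4*, −3.56 for *Dusp9* and −2.24 for *Crabp2*. In Kat5/2 they were 6.71 for *Arsj*, 3.34 for *Anxa10*, 2.78 for *Foxd1*, −11.62 for *Arhgef5*, −11.07 for *Gli2*, −10.46 for *Gata6*, −10.09 for *Snrpn* and −10.07 for *Akip1*. In Kat5/3 they were 7.98 for *Ndn*, 5.32 for *Serpine2*, 2.91 for *Dusp9*, −3.50 for *S1pr3* and −3.27 for *Plxna4*.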

How the results depend on the processing

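Each library had at least 30968945 counts on genes, and each clone was a single library. The number of DEGs (52) became 632 at an unadjusted p, 166 without a filter on low counts, 535 with DESeq2 and 22 with all 10 libraries in 1 fit, and 1 to 903 when single libraries were left out. Downregulated genes were 50% of the 2 DEGs without wildtype library 4 and 100% of the 1 DEG without wildtype library 1. In the other fits with any DEGs they were 58.1% to 82.4%. With the replicate number as a block there were 0 DEGs (656 at an unadjusted p). Residuals of same-numbered libraries correlated at 0.19, −0.11 and 0.04. Kat5/1 correlated best with wildtype library 1, Kat5/2 with wildtype library 3 (0.19) and Kat5/3 with wildtype library 4 (0.10). With so few libraries, these values cannot decide whether the numbers pair the libraries. Other normalizations, limma and a robust fit gave 52 to 74. The genes changed in all 3 clones (202) became 412 without a limit on the mean, 530 at 1.5-fold and 194 to 797 when libraries were left out. Genes that depended on Kat5/1 (23), Kat5/2 (52) and Kat5/3 (6) became 100, 147 and 24 without a filter, 271, 431 and 132 with DESeq2, and 3, 9 and 1 with all 10 libraries. They ranged over 0 to 248, 0 to 391 and 1 to 85 when libraries were left out. No block could be fitted with a mean per clone, as 0 residual degrees of freedom remain. The cause of these changes was not tested. Genes named for the groups kept their direction with library size alone, the replicate block, DESeq2 and each library left out. Their direction was not examined in the other alternatives. Genes named for a clone kept theirs with a robust fit, DESeq2 size factors, the chromosome offset and no limit on the mean. They also kept it without a filter on low counts, with DESeq2, with all 10 libraries and with each library left out. They were called in 2 to 4 of the fits that left out a library.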
